A study of Homo sapiens with 6 samples.

Results

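GFI1B, GFI1, TAL1, LYL1, LMO2, LDB1, GATA1, GATA2, MYB and NFE2 encode transcription factors and adaptors that set the identity of blood progenitors and of the red cell and platelet lineages. They were followed in K562, a chronic myelogenous leukaemia line, after 3 h with 25 nM cortistatin A (CA), which inhibits CDK8 and its paralog CDK19, the kinases of Mediator, or with the vehicle DMSO. The genes were chosen with earlier results of these data known. All probe sets whose platform annotation gives a single one of these symbols were then taken, without regard to their values. This gave 20 probe sets for the 10 genes, of 54613 probe sets that are not controls, on 3 CA and 3 DMSO arrays. Both groups were triplicate K562 wells in the same medium, with a plating density between 500000 and 800000 cells per mL, so the replicates come from 1 line, and the p-values measure the spread between such wells. Values are log2 signals from RMA, a method that gives all arrays the same overall distribution, and a difference of 1 on this scale is a doubling. In such bulk samples, fewer cells of a type and less RNA per cell cannot be told apart.

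These proteins work together on DNA. GATA1 and GATA2 are zinc finger proteins that bind GATA motifs. TAL1 and its relative LYL1 are basic helix-loop-helix proteins that pair with E proteins on E-boxes. The LIM-domain adaptor LMO2 and the dimerising protein LDB1 bridge the GATA and the helix-loop-helix factors and bring distant enhancers to promoters. GFI1B and GFI1 are zinc finger repressors that recruit the demethylase KDM1A through a short N-terminal SNAG domain, and in mice GFI1B is needed for red cells and megakaryocytes. MYB drives the growth of blood progenitors, and NFE2 pairs with small MAF proteins on globin and platelet genes. In human erythroid cells GATA1 and the CCAAT-binding factor NF-Y are known to act on the GFI1B promoter, and GFI1B to repress its own gene through it.

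The RefSeq table held promoter windows, from 250 bases before to 50 bases after an annotated start, for 8 of the 10 genes, 13 windows in all. The windows of GFI1B, the factor with the largest change, are shown. Beside them are the first of 2 windows of TAL1 and the single one of its relative LYL1. The brightest TAL1 probe set and the single LYL1 one had fitted log2 changes of 0.22 and -0.06 in CA. Neither passed the test described below. Coordinates are of GRCh38.p14, each sequence runs 5′ to 3′ on the strand of its gene, and capitals mark GATA motifs on either strand. These were searched as A or T, then GATA, then A or G. The GFI1B windows lie at chr9:132945281-132945580 and chr9:132978444-132978743 on the plus strand, and those of TAL1 and LYL1 at chr1:47232286-47232585 and chr19:13102809-13103108 on the minus strand.
GFI1B start 1: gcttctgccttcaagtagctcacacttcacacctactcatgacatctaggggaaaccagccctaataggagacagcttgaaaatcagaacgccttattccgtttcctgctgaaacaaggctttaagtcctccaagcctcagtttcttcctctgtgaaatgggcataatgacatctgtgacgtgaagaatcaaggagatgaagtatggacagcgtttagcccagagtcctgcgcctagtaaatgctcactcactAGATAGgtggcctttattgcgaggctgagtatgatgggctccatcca
GFI1B start 2: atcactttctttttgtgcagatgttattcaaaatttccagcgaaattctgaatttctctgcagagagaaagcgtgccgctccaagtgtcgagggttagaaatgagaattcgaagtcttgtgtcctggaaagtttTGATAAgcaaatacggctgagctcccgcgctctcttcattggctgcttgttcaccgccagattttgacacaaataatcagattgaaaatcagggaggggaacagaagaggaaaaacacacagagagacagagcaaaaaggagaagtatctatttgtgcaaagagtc
TAL1 start 1: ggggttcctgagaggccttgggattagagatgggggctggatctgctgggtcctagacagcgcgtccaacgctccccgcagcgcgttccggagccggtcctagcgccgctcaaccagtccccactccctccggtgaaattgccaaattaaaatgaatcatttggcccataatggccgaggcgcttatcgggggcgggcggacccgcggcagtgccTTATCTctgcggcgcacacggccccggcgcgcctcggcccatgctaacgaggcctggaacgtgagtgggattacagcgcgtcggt
LYL1 start 1: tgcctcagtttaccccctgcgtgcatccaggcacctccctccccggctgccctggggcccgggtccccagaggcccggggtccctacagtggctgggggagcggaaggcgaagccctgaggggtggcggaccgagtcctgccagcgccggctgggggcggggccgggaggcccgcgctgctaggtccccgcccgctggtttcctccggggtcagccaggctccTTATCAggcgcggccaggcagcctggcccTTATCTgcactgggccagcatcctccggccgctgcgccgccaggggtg

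A GATA motif was found in 5 of the 13 windows, of 4 genes: GFI1B, GFI1, TAL1 and LYL1. Of all 35116 promoter windows in the table, 25% hold one. At the second GFI1B start it is TGATAA, 116 to 111 bases upstream. It overlaps a composite of CTG and GATA spaced by 7 to 9 bases, the arrangement on which TAL1 and GATA1 complexes are known to sit, which 5.58% of all windows hold and which LYL1 holds as well. The same GFI1B window has 4 copies of AATC, the core of the GFI1B motif, within its last 57 bases before the start, and a CCAAT box 79 to 75 bases upstream. AATC occurs in 69% and CCAAT in 34.6% of all windows, and these cores were added to the search after the windows were read. The longer GFI motif, AATC and GC spaced by 3 bases and held by 11% of all windows, was found for GFI1 alone among these genes. E-boxes (CANNTG, in 68.7% of all windows) were found in both GFI1B windows, 1 TAL1 window, 2 GFI1 windows and 1 GATA2 window. The core of the NFE2 motif, TGACTCA, in 4.95% of all windows, was in none of the 13. The MYB core AACNG, in 77.2% of all windows, was in 8 of the 13. The windows of GATA1, LDB1 and MYB held neither a GATA motif nor an E-box. LMO2 and NFE2 had no window in the table.

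**Figure D1:**
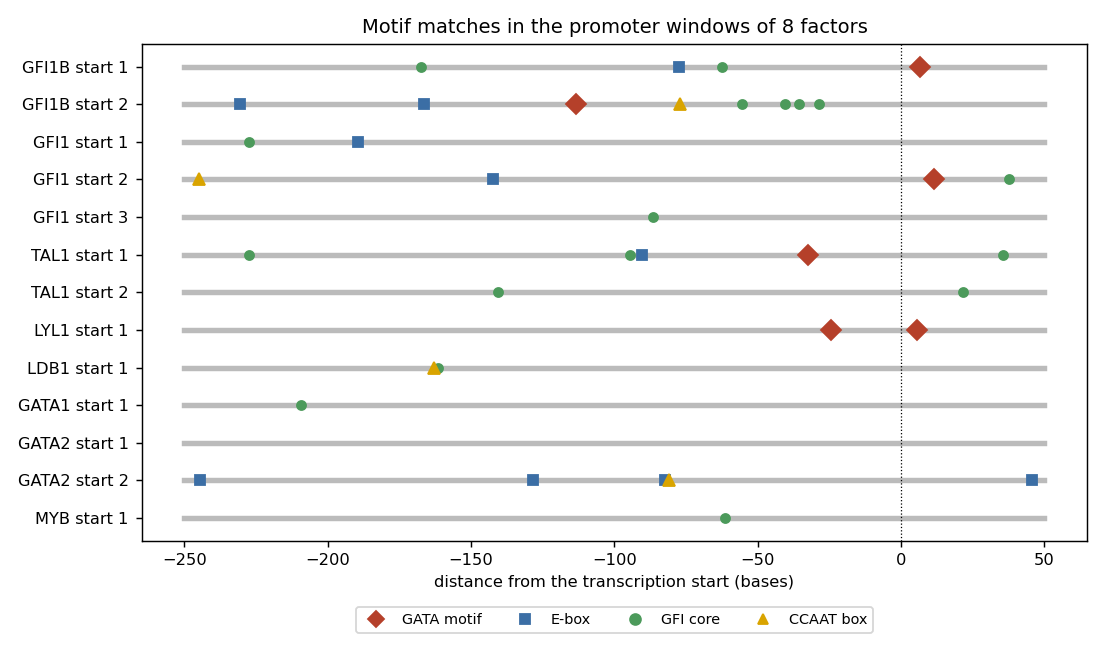
Motif matches on either strand in the 13 promoter windows of 8 factors, drawn by their distance from the annotated start in bases; each grey bar is 1 window from 250 bases before to 50 bases after the start. The second GFI1B window has 1 GATA motif, 2 E-boxes, 1 CCAAT box and 4 GFI cores, and LYL1 has 2 GATA motifs near its start.

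In CA, GFI1B rose, and it was the 1 gene of the 10 to pass the test. MYB, LMO2, NFE2, TAL1 and GATA2 had smaller fitted increases, with every CA array above every DMSO array on their brightest probe set, but did not pass. GATA1, LYL1 and LDB1 had overlapping groups. GFI1 was not above the signal filter. The test took in probe sets whose average log2 signal reached 3.49, the median over all probe sets, and 18 of the 20 did. The 2 that did not are the single one of GFI1 and 1 of the 4 of TAL1. The test was limma's moderated test per probe set, with Benjamini-Hochberg adjustment over all 27307 tested probe sets and a threshold of 0.05. By it 2 of the 18 were called, both higher in CA, where 0.0952% of all tested probe sets were called in either direction and 0.0513% as higher.

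The 2 called probe sets were those of GFI1B. On the brighter one, 237403_at, the CA arrays read 8.59, 8.51 and 8.46 and the DMSO arrays 7.90, 7.93 and 8.02. Every CA array lay above every DMSO array, with a gap of 0.43 between the groups. Mean signal was 8.52 ± 0.07 in CA and 7.95 ± 0.07 in DMSO (SD, n = 3 each), a log2 change of 0.57 (95% confidence interval 0.43 to 0.70, adjusted p = 0.0437), or 1.48-fold. On the dimmer one, 208501_at, CA arrays read 6.68, 6.49 and 6.45 and DMSO arrays 5.78, 5.68 and 5.87. The groups were again apart, by 0.58, and the fitted log2 change was 0.77 (0.58 to 0.96, adjusted p = 0.0455), or 1.70-fold. CA array 1 was the highest of the CA arrays on both. By p-value these probe sets ranked 20th and 25th of the 27307. Neither call held with fewer arrays: without any 1 of the 6 arrays both were lost, with the log2 change of the brighter one between 0.53 and 0.60 and its adjusted p between 0.135 and 0.287. Leaving out probe sets shared between transcripts, none of which is a GFI1B probe set, gave the same change at an adjusted p of 0.0504.

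GFI1, the close relative that GFI1B replaces in the red cell and platelet lineages, was near the floor of the array. Its probe set read 2.29, 2.45 and 2.23 in CA and 2.35, 2.30 and 2.61 in DMSO. The groups overlapped, and the level is below the filter, so the signal bears on no change of GFI1 in either direction.

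**Figure D2:**
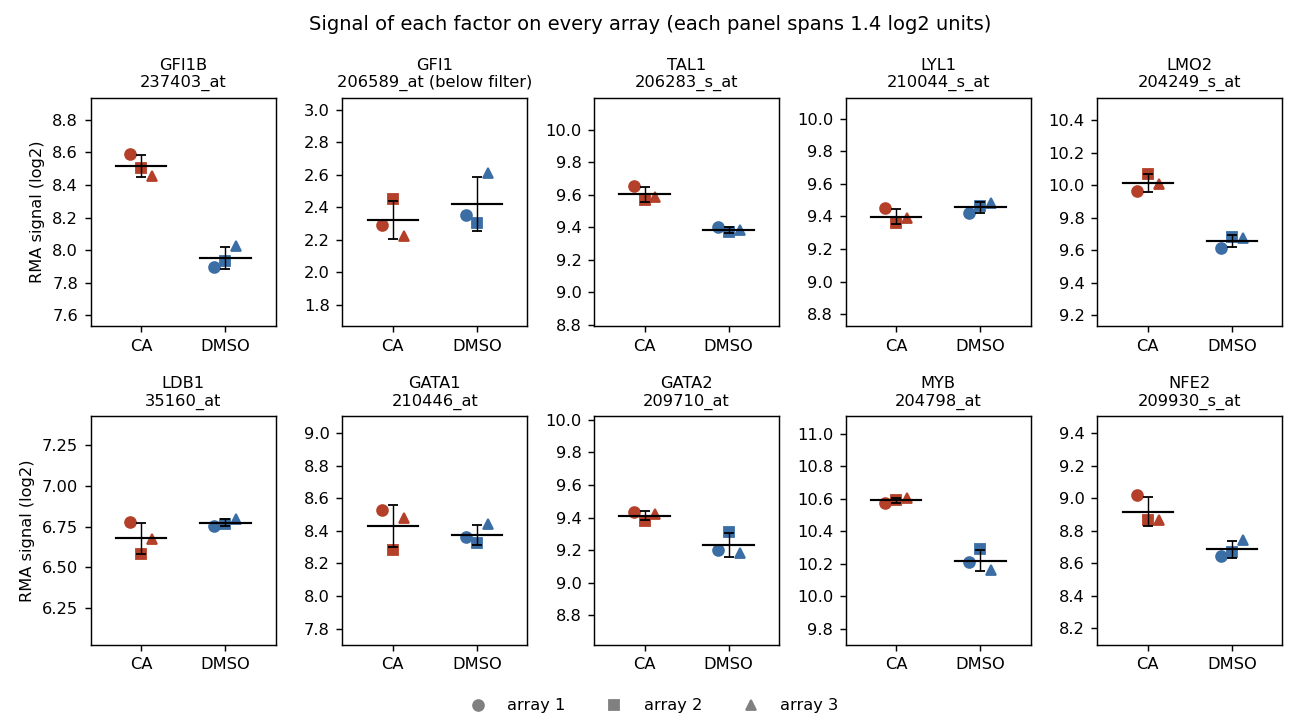
RMA log2 signal of the 10 factors on each array, CA left and DMSO right, 1 panel per gene for its brightest probe set; symbols are arrays 1 to 3, lines and bars are means and SD (n = 3). GFI1B in CA averaged 8.52 against 7.95 in DMSO, and GFI1 stayed between 2.23 and 2.61 on all 6 arrays.

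Of the helix-loop-helix factors, TAL1 was measured by 3 tested probe sets that differed. On the brightest, 206283_s_at, CA arrays read 9.66, 9.57 and 9.58 and DMSO arrays 9.40, 9.37 and 9.38, with no overlap. The log2 change was 0.22 (0.11 to 0.32, adjusted p = 0.232), or 1.16-fold, which did not pass. The other tested probe sets gave 0.05 (-0.10 to 0.19) and 0.12 (-0.14 to 0.38), with overlapping groups. LYL1, which can stand in for TAL1 in some blood progenitors, read 9.45, 9.36 and 9.39 in CA and 9.42, 9.46 and 9.48 in DMSO. Its groups overlapped, and its log2 change was -0.06 (-0.16 to 0.05).

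The adaptors LMO2 and LDB1 stood apart from each other. LMO2 read 9.96, 10.07 and 10.01 in CA and 9.61, 9.68 and 9.68 in DMSO on 204249_s_at. All CA arrays were higher, by at least 0.28. The log2 change of 0.36 (0.24 to 0.47), or 1.28-fold, had an adjusted p of 0.0997. A dim second LMO2 probe set, whose CA arrays also lay above the DMSO arrays, gave 0.29 (0.08 to 0.50). LDB1 read 6.78, 6.58 and 6.68 in CA and 6.76, 6.77 and 6.80 in DMSO on its brightest probe set. Its log2 changes were -0.09 (-0.23 to 0.05) and -0.05 (-0.15 to 0.06), with overlap on both probe sets.

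GATA2, the GATA factor of stem and progenitor cells, read 9.43, 9.38 and 9.42 in CA and 9.20, 9.31 and 9.18 in DMSO on 209710_at. The groups were separated by 0.07, and the log2 change was 0.18 (0.06 to 0.30, adjusted p = 0.361). A probe set that may cross-hybridise, 210358_x_at, gave 0.23 (0.11 to 0.35), also without overlap, and a further dim one 0.04 (-0.10 to 0.19). GATA1, the GATA factor that replaces GATA2 as red cells mature, read 8.53, 8.28 and 8.48 in CA and 8.36, 8.33 and 8.44 in DMSO. Both of its probe sets overlapped between groups, with log2 changes of 0.05 (-0.13 to 0.23) and 0.08 (-0.14 to 0.29).

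MYB was the second largest fitted change among the brightest probe sets of these genes. It read 10.57, 10.59 and 10.60 in CA and 10.21, 10.29 and 10.16 in DMSO on 204798_at. The CA arrays lay within 0.04 of each other and all above the DMSO arrays, and the log2 change was 0.37 (0.25 to 0.48, adjusted p = 0.0857), or 1.29-fold. The dim probe set 215152_at, at 4.88 in CA and 4.82 in DMSO, gave 0.07 (-0.06 to 0.19) with overlap. NFE2 read 9.02, 8.87 and 8.86 in CA and 8.64, 8.67 and 8.74 in DMSO, again without overlap. Its log2 change was 0.23 (0.09 to 0.38, adjusted p = 0.333), or 1.17-fold.

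**Figure D3:**
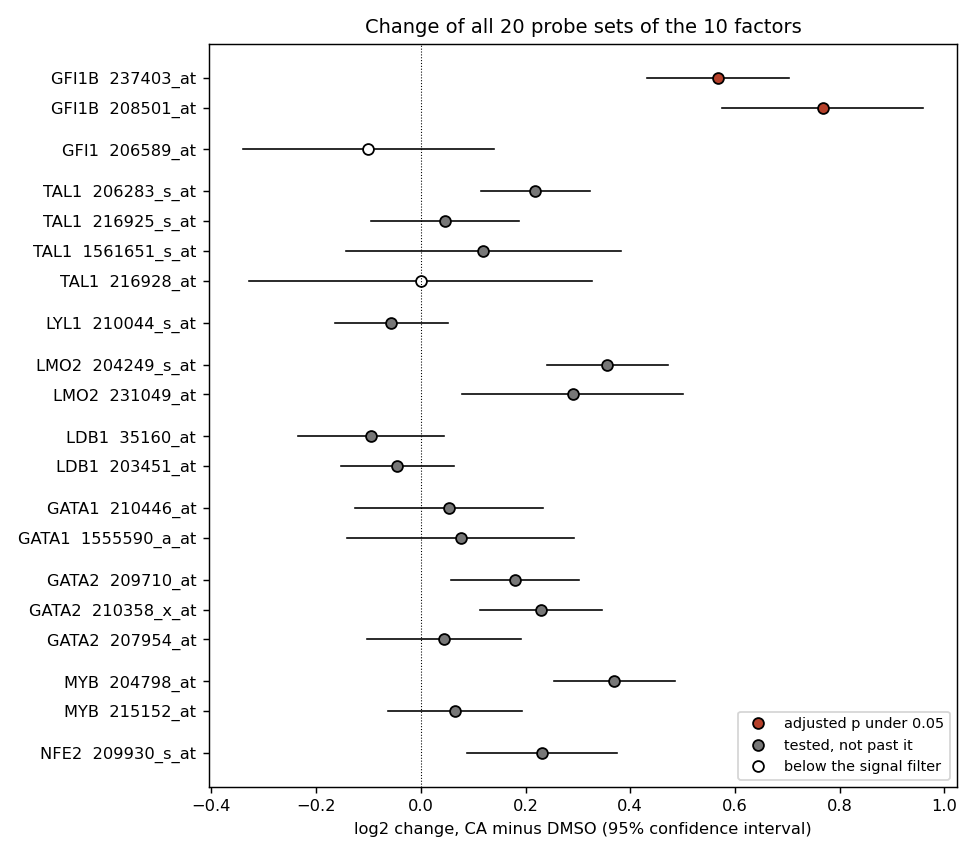
Fitted log2 change, CA minus DMSO, with its 95% confidence interval for all 20 probe sets, grouped by gene with the brightest first; filled red marks adjusted p under 0.05, grey tested probe sets not past it and white those below the signal filter. Both GFI1B probe sets, at 0.57 and 0.77, lie to the right of all others.

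Over the 18 tested probe sets, 15 had a fitted change above 0 and 3 below 0, and the median was 0.15, against -0.01 over all tested probe sets. On 9 of the 18, all CA arrays lay above all DMSO arrays, and on 0 of 18 all lay below, where 7.09% and 8.52% of all tested probe sets did so. The same 9 had an unadjusted p under 0.05, all on the higher side, as did 9.31% of all tested probe sets in either direction and 4.55% on the higher side. With the prior variance allowed to depend on signal, 7 of the 18 were called, all higher in CA, on 6 genes: GFI1B, MYB, LMO2, TAL1, NFE2 and GATA2. In that fit 1.04% of all probe sets were called and 0.659% as higher. These counts describe probe sets chosen with earlier results of these data known, and several of them share a gene.

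Signs of labelling quality moved with the groups. The 3' minus 5' log2 difference of the actin control probe sets was 1.14 to 1.31 in CA and 1.40 to 1.49 in DMSO, and that of the dap control 3.01 to 3.16 in CA and 3.25 to 3.34 in DMSO, both without overlap. The thr control differed by more, -0.32 (CA minus DMSO), with a narrow overlap of 2.12 to 2.38 in CA and 2.38 to 2.66 in DMSO, and the GAPDH, lys and phe controls overlapped with differences of -0.03 to 0.03. The labels' protocols name 2 ways of isolating RNA, a column kit and TRIzol, without saying which sample had which, so isolation and group could not be compared. With the actin difference as a covariate, added after seeing the data, the log2 change of GFI1B was 0.39 (SE 0.11, adjusted p = 0.677) and 0 probe sets were called among all. NFE2 was then 0.06 (SE 0.12), against 0.23 without the covariate, and MYB was 0.46 (SE 0.11). The actin difference itself separates the groups without overlap, so its part in the results cannot be told apart from that of CA. Scaling the arrays to the 3' ends of the added poly(A) controls would add 0.18 to every log2 change, which puts LYL1 at 0.13 and LDB1 at 0.09, above 0 rather than below it.

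To relate factors of the same complex, the log2 signal of one was subtracted from that of the other on each array, and the difference compared between groups by an exact 2-sided permutation test. With 3 against 3 arrays that test cannot give a p below 0.1, so it cannot pass 0.05. Of 10 pairs set up, 9 could be measured, since GFI1 was below the filter, and p-values were not adjusted over pairs. The pairs were chosen with earlier results of these data known. In each measured pair the first-named factor already had all CA arrays above all DMSO arrays on its brightest probe set. A separated difference above 0 therefore largely restates that change and is no further support for it. How often pairs of other genes separate was not tested. TAL1 changed by 0.27 more than LYL1 (SE 0.03, exact permutation p = 0.1). The TAL1 minus LYL1 difference was 0.20 to 0.21 on the CA arrays and -0.10 to -0.02 on the DMSO arrays. With TAL1 read as the mean of its tested probe sets, it changed by 0.18 more than LYL1 (exact permutation p = 0.1). LMO2 changed by 0.45 more than LDB1 (SE 0.09, exact permutation p = 0.1), and GFI1B by 0.61 more than its corepressor KDM1A (SE 0.05, exact permutation p = 0.1). In these pairs the CA and DMSO arrays did not overlap.

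Set against GATA1, the change was larger by 0.51 for GFI1B (SE 0.08), by 0.32 for MYB (SE 0.11) and by 0.17 for TAL1 (SE 0.07), each without overlap between the groups on the brightest probe sets. With each gene read as the mean of its tested probe sets, the difference from GATA1 was 0.15 for MYB (exact permutation p = 0.3) and 0.06 for TAL1 (exact permutation p = 0.8), so the separation of these pairs rests on the brightest probe sets. For GATA2 against GATA1 it was larger by 0.13 (SE 0.09, exact permutation p = 0.3), with differences of 0.90 to 1.10 on the CA arrays and 0.74 to 0.99 on the DMSO arrays, so the balance of the GATA factors was not resolved at this number of arrays. LMO2 against TAL1 gave 0.14 (SE 0.06, exact permutation p = 0.2), also with overlap. NFE2 changed by 0.23 more than its small MAF partner MAFG (SE 0.09), without overlap.

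**Figure D4:**
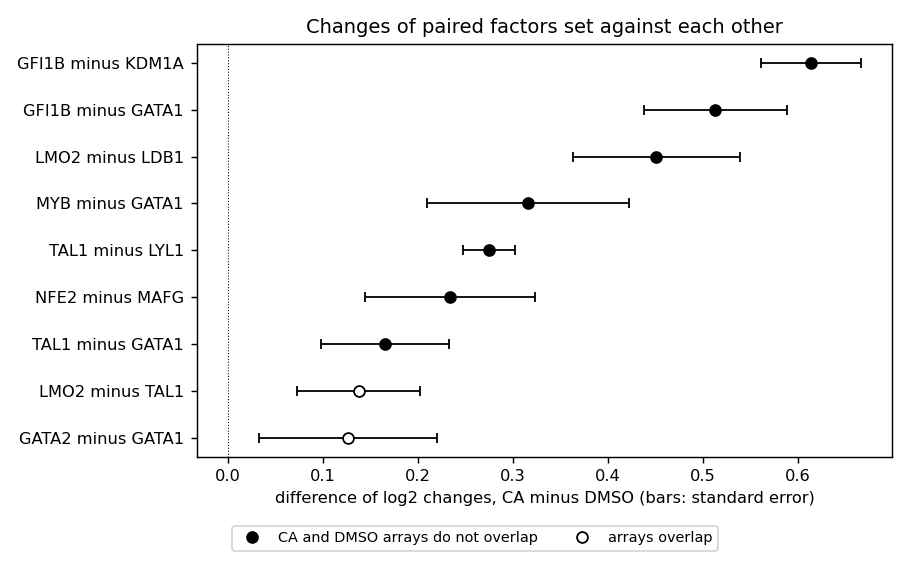
Difference between the log2 changes of 9 pairs of factors, CA minus DMSO, on their brightest probe sets; points are differences, bars are standard errors (3 arrays each) and filled points mark pairs whose CA and DMSO arrays do not overlap. GFI1B against KDM1A, at 0.61, is the largest, and GATA2 against GATA1, at 0.13, the smallest.

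The partners of these factors did not pass the test. With the prior variance allowed to depend on signal, 4 genes of the lists below were called, all higher in CA. They were MEF2C, ID2, TFRC and MAFF, with adjusted p of 7.2e-05, 0.0095, 0.016 and 0.029 by limma. In that fit 1.04% of all tested probe sets were called. The counts below are from the main fit. Over the 12810 measured genes, each read from its brightest tested probe set, 0.0859% were called and 8.61% had an unadjusted p under 0.05 by limma, and the median log2 change was -0.01. Of 12 measured E proteins, LIM-domain adaptors and their partners, 0 were called, and all 12 had fitted values below 0, with a median of -0.06. These values ran from -0.14 to -0.0015, and the share of all measured genes below 0 was not counted. An unadjusted p under 0.05 by limma was found for 8.3% of the list, close to the share over all genes. Only LMO4, a LIM-only relative of LMO2, had an unadjusted p under 0.05, with a log2 change of -0.14 (SE 0.05). SSBP4, which shields LDB1 from degradation together with its relatives, had -0.11. CBFB, the partner of RUNX factors, had -0.09, and the E protein TCF4 -0.07. Of 12 measured subunits of the corepressor recruited by the SNAG domain, 0 were called and 1 had an unadjusted p under 0.05, the zinc finger subunit ZMYM2 at -0.20 (SE 0.07). RCOR2 gave -0.25 (SE 0.12), PHF21A -0.10, KDM1A -0.05 and the deacetylase HDAC2, the brightest, -0.04. The median of this list was -0.04.

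Among 7 measured small MAF proteins and relatives of NFE2, 0 were called and the median was 0.07. MAFF read 7.36, 7.19 and 7.11 in CA and 6.96, 6.87 and 6.85 in DMSO, a log2 change of 0.33 (SE 0.07, adjusted p = 0.281), while BACH2, NFE2L3 and NFE2L2 gave 0.10, 0.11 and 0.07. Of 6 MYB relatives and coactivators 0 were called, with a median of -0.07. KMT2A and CREBBP, a histone methyltransferase and an acetyltransferase, had unadjusted p under 0.05 at -0.16 (SE 0.05) and -0.18 (SE 0.07), MEN1 and EP300 gave -0.07 each, and MYBL2, the brightest, gave -0.04.

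Of 12 other measured blood lineage factors, 0 were called and the median was 0.00. The 3 with an unadjusted p under 0.05 were all higher in CA. MEF2C, a factor of megakaryocytes and lymphoid cells, read 10.03, 10.06 and 10.02 in CA and 9.75, 9.68 and 9.72 in DMSO, a log2 change of 0.32 (SE 0.04, adjusted p = 0.0943). IKZF1, a zinc finger factor of lymphoid cells, had 0.20 (SE 0.06) and HHEX, a homeobox factor of early blood cells, 0.17 (SE 0.05). ETV6 gave -0.17 (SE 0.07).

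Genes known as targets of repression by GFI1 or GFI1B did not lie lower as a list. Of 8 measured, 0 were called, the median was 0.13, and 5 had an unadjusted p under 0.05, 4 of them higher in CA. ID2, an inhibitor of helix-loop-helix factors, read 6.67, 6.48 and 6.45 in CA and 6.14, 6.14 and 6.02 in DMSO, a log2 change of 0.44 (SE 0.07, adjusted p = 0.169). The cytokine signalling inhibitor SOCS1 had 0.33 (SE 0.06, adjusted p = 0.217), ID1 had 0.15 (SE 0.05), and SOCS3, named after its value was seen, had 0.21 (SE 0.08). The cell cycle inhibitor CDKN1A was the 1 with an unadjusted p under 0.05 on the lower side, at -0.21 (SE 0.05, adjusted p = 0.343). Several of these genes are also known targets of STAT5 or of TGF-beta and BMP signalling, and which regulator these values reflect was not tested.

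Erythroid targets of GATA1 and TAL1 gave 0 calls of 20 measured genes, with 10 fitted values above 0, 10 below and a median of 0.00. The embryonic globin gene HBE1, the brightest, was 13.27 in both groups, with a log2 change of -0.01 (95% confidence interval -0.10 to 0.08). The transferrin receptor gene TFRC had 0.12 (SE 0.04) and was the 1 member with an unadjusted p under 0.05. The anion exchanger SLC4A1 had 0.17 (SE 0.09), the iron importer SLC25A37 0.15 (SE 0.08) and XK, a red cell membrane protein, 0.07 (SE 0.04). Of 8 measured megakaryocyte targets 0 were called and the median was 0.15. RAB27B, which serves platelet granules, had 0.17 (SE 0.05) and the platelet tubulin TUBB1 0.16 (SE 0.05), both with an unadjusted p under 0.05. GP9 and GP1BA, subunits of the platelet receptor for von Willebrand factor, gave 0.18 (SE 0.14) and 0.17 (SE 0.12), with overlapping groups. GP9 was read from a probe set that may cross-hybridise. GP1BA averaged 3.64 in CA and 3.46 in DMSO, the latter below the signal filter. Its value is too close to the filter to read as a change, though it is counted in the median.

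**Figure D5:**
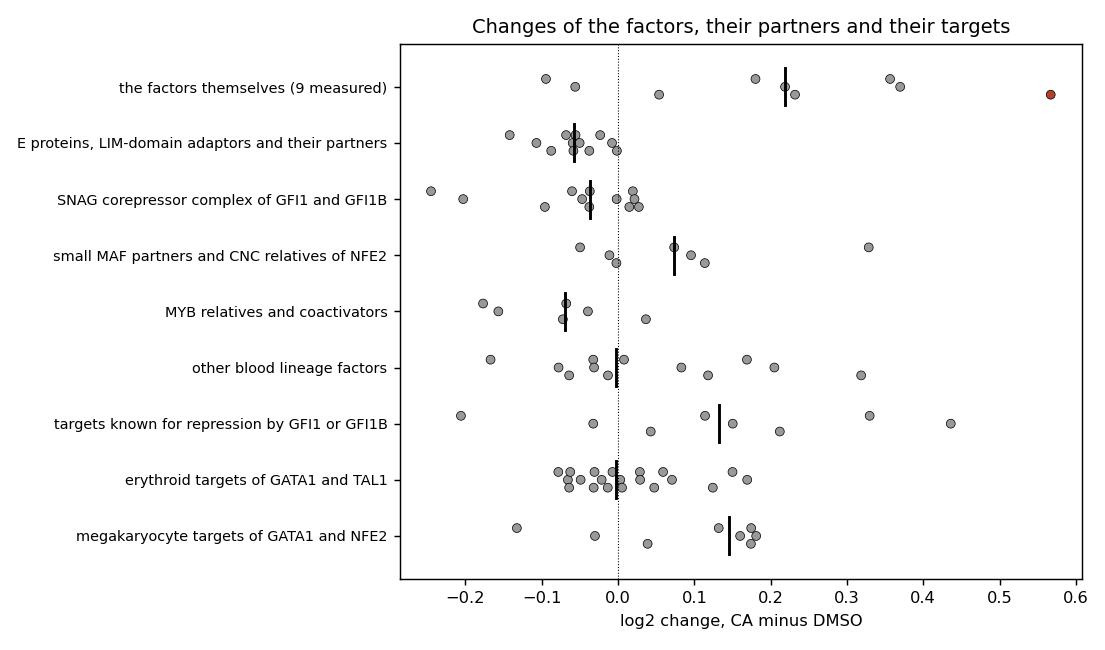
Fitted log2 change, CA minus DMSO, of each measured gene on its brightest tested probe set, for the factors and 8 lists of their partners and targets; black bars are medians and red marks adjusted p under 0.05. GFI1B at 0.57 is the only red point, all 12 E proteins and adaptor partners lie below 0, from -0.14 to -0.0015, and the erythroid targets centre on 0.00.

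The label of the line was borne out by its own markers. All 6 erythroid markers with a probe set of their own were above the filter, and the summed level of the list was 14.23 to 14.26 in CA and 14.22 to 14.23 in DMSO. The probe sets shared by HBG1 and HBG2 averaged 14.05 to 14.09 in CA and 14.03 to 14.07 in DMSO. Of 8 myeloid markers 3 were above the filter, LYZ at 8.86 in CA and 8.90 in DMSO and ITGAM and CSF3R near it, while MPO, ELANE and CD14 were below, and the list summed to 8.94 to 9.16 in CA and 9.03 to 9.10 in DMSO. Lymphoid markers above the filter were 4 of 7, led by CD3D at 9.05 in CA and 9.08 in DMSO, with a list sum of 9.22 to 9.27 in CA and 9.21 to 9.32 in DMSO. Of stromal and epithelial markers 5 of 8 were above it, led by EPCAM at 10.45 in CA and 10.47 in DMSO, with a sum of 10.97 to 11.06 in CA and 11.01 to 11.09 in DMSO. In the lists of other cell types the groups overlapped. The erythroid sums did not, but only just, with 14.2305 the lowest in CA and 14.2291 the highest in DMSO.

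Across all measured genes, the 5 whose signal followed GFI1B most closely over the 6 arrays were BHLHE40, ANTXR2, HEMGN, ZFPM2 and POLR1G, with Pearson correlations of 0.996, 0.994, 0.992, 0.992 and 0.991. The 6 points fall into the CA and DMSO groups, so these values mostly describe a like separation of the groups. BHLHE40, a helix-loop-helix repressor, had 8.88 to 8.97 in CA and 8.02 to 8.23 in DMSO (log2 change 0.78, SE 0.07, adjusted p = 0.0235). HEMGN, a nuclear protein of red cell precursors, had 10.01 to 10.05 in CA and 9.66 to 9.73 in DMSO (0.34, SE 0.04, adjusted p = 0.0817). ZFPM2, a cofactor of GATA proteins also called FOG2, had 8.16 to 8.22 in CA and 7.90 to 7.97 in DMSO (0.24, SE 0.04, adjusted p = 0.193). POLR1G, a subunit of RNA polymerase I, gave 0.33 (SE 0.05), and ANTXR2, an anthrax toxin receptor, 0.19 (SE 0.04). Of the 5, BHLHE40 was called.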

How the data were processed

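Expression was measured in K562 cells on Affymetrix Human U133 Plus 2.0 arrays, 3 CA and 3 DMSO, from 100 ng of total RNA per array, per the labels' protocols. The authors deposited log2 values for 54675 probe sets, made with RMA in the affy package per the submitters' processing notes, with no version given. RMA sets all arrays to a common distribution, which hides any shift common to most transcripts and compresses changes of dim probe sets. Array medians lay between 3.47 and 3.52.

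From these values, 62 control probe sets were left out. The 27307 probe sets at or above the median mean signal were tested with limma 3.58.1 in R 4.3.3 (lmFit, eBayes, no block, 2-sided). The fit was checked on simulated data in which the changes were a doubling or its reverse. The fitted changes of the 10 factors were smaller, and detection at their size was not checked. Adjusted p-values are over all tested probe sets. Gene names came from the platform annotation, in which 41091 probe sets had 1 symbol, 1801 several and 11721 none; the 10 members had the same symbol by gene ID in RefSeq. A gene was read from its brightest tested probe set. RUNX1, HBA1, HBA2, HBG1, HBG2 and GP1BB were on probe sets with several symbols and were not counted in lists. The members, lists, pairs and motifs were chosen with earlier results of these data known. Genes named from a list are its called genes, up to 4 with the smallest p and its brightest. The number of arrays limits the precision, and the median SE of a log2 change was 0.07. Samples with the same replicate number did not deviate together (correlations of deviations -0.07, 0.01 and 0.06). The labels give no batch and do not say which samples had which of 2 RNA isolation methods. Alternatives were another prior variance, filters, scalings, array weights, a replicate block, probe sets not shared, means over a gene's probe sets, and leaving out each array.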

Additional observations from a re-analysis of the deposited data

How the results depend on the processing

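The count of 2 called probe sets of the 10 factors (of 26 over all genes), 1 called factor (GFI1B) and 0 called genes in the partner and target lists depended on the variance model, the filter and the number of arrays. With the mean-dependent prior variance these counts were 7, 285, 6 and 4. With the filter at the 75th percentile they were 5, 162, 4 and 2, and with no filter 0, 5, 0 and 0. Scaled to the 3' poly(A) controls, which moves the median log2 change of all probe sets to 0.18, they were 9, 1888, 6 and 13, and LYL1 and LDB1 reversed to 0.13 and 0.088. Scaled to the 5' controls 39 probe sets were called in all, within 1.5 times of the count of 26. With the replicate block, whose numbers do not pair the samples, and with the actin 3'/5' covariate, added after seeing the data, 0 probe sets were called, of the factors or in all. GFI1B then had an adjusted p of 0.407 with the block and 0.677 with the covariate. Without shared probe sets the counts were 0, 1, 0 and 0. Leaving out 1 array gave 0 of the factors' probe sets, 0 factors, 0 list genes and 2 to 5 probe sets in all. In the alternatives run, GFI1B, MYB, LMO2, TAL1, GATA2, NFE2 and GATA1 kept fitted changes above 0, those of GATA1 down to 0.00 without 1 array. Differences between paired factors were rerun only with probe set means, the replicate block and each array left out. In those reruns no difference changed sign. NFE2 was down to 0.06 with the covariate. With all tested probe sets averaged, MYB was 0.22 and TAL1 0.13, and the differences from GATA1 were 0.15 for MYB and 0.06 for TAL1. Without 1 array, GATA2 minus GATA1 was 0.07 to 0.19 and TAL1 minus GATA1 0.11 to 0.20. Leaving out an array leaves fewer samples in the fit. With no filter the SE of GFI1B was 0.066, against 0.057 with it, and more probe sets were adjusted over. The causes of lost calls were not tested. Signal over background limits GFI1, the dimmest TAL1 probe set and the dim probe sets of LMO2 and MYB. It also limits the megakaryocyte targets GP1BA, THBS1, PF4 and ITGB3.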
